A study of Mus musculus with 3 samples.

Results

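Homeostatic chemokines and their receptors were taken as 8 genes, chosen by symbol in the gene lists of the libraries: the ligand genes Cxcl12, Cxcl13, Cxcl14, Cxcl16 and Cx3cl1, and the receptor genes Cxcr4, Cx3cr1 and Cxcr6. All 8 symbols were present once each among 32285 listed genes. Single cells came from quadriceps muscle of wild-type C57BL/6 mice in which a surgical muscle defect had been packed with particles of polycaprolactone (PCL), a slowly degrading polyester, 6 weeks earlier; the fibrous tissue around the implant was taken with the muscle. Dead cells were taken out and the suspension was split on magnetic beads into cells with and without CD45, the leukocyte surface protein, and equal numbers of both were then mixed, so that the balance of leukocytes and stromal cells need not be that of the tissue. There were 3 libraries of this 1 group, called replicates 1 to 3, and no library of uninjured muscle or of a defect without PCL, so cell classes rather than treatments were compared. Whether each library is a different animal is not stated in the labels; every p-value therefore reflects variation among 3 libraries, and that variation may be technical.

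Chemokines are small secreted proteins that guide cells through G protein-coupled receptors. Homeostatic chemokines are made without inflammation and place leukocytes in tissues: CXCL12 retains CXCR4-bearing cells, CXCL13 organises lymphoid follicles through CXCR5, and CXCL14 is made by many resting epithelia and fibroblasts. CX3CL1 and CXCL16 are made as membrane proteins with a chemokine head on a stalk, are released by the proteases ADAM10 and ADAM17, and bind CX3CR1 and CXCR6. In muscle, CX3CR1 marks many resident and repair macrophages, and CXCR6 is a receptor of tissue-resident lymphocytes.

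Promoter sequence of 3 of these genes is shown because the data turn on where they were counted: Cxcl12 and Cxcl13, whose UMIs (unique molecular identifiers, one per captured transcript) lay almost wholly in stromal-like cells, and Cxcr4, whose level was lowest there. The sequences are the 250 bases 5′ of the annotated gene start in RefSeq (mouse build GRCm38.p6), in gene orientation, and capitals mark matches to the searched motifs. The windows lie at chr6:117168285-117168534 on the plus strand for Cxcl12, chr5:95956689-95956938 on the plus strand for Cxcl13 and chr1:128592300-128592549 on the minus strand for Cxcr4. RefSeq gave a promoter for 7 of the 8 genes, Cxcl16 being the other.
Cxcl12: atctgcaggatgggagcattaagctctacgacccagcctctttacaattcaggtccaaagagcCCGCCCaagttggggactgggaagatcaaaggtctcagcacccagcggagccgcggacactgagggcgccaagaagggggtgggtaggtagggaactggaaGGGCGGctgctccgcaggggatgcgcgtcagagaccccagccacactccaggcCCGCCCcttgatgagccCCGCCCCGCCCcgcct
Cxcl13: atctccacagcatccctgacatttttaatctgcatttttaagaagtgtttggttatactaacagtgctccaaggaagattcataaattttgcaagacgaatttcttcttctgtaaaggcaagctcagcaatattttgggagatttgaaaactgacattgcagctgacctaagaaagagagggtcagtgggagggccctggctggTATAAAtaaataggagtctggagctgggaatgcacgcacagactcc
Cxcr4: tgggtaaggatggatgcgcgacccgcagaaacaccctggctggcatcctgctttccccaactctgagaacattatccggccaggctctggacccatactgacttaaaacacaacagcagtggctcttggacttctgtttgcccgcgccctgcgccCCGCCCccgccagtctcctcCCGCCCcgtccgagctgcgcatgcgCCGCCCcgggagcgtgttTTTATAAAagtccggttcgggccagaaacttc
Motifs were searched on both strands, and their share is given over 32851 mouse promoter windows of the same length. TATAAA, the core of the TATA box, was in 12.4% of windows. GAGGAA, a core bound by ETS-family factors such as PU.1, was in 23.3%. GGGCGG, the GC box, was in 32.7%. TGACTCA, the AP-1 site, was in 4.46%. The Cxcl12 window held 5 matches to GGGCGG, 4 of them on the opposite strand, with the last pair overlapping. The Cxcl13 window held TATAAA 46 bases before the start and no other match. The Cxcr4 window held TATAAA 30 bases before the start, overlapping a match on the opposite strand, and 3 matches to GGGCGG on the opposite strand. Of the windows not printed, that of Cx3cl1 held the ETS core, a GC box and TATAAA, the last as the 6 bases next to the start. Those of Cxcl14, Cx3cr1 and Cxcr6 held none of the 4 motifs. A match is only a run of letters, and no match says only that these letters are not in this window.

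After filtering, 17955 cells were kept (5658, 7691 and 4606 in replicates 1 to 3), from libraries of 136519688, 192348779 and 104482261 UMIs before filtering. Clusters were named only by fixed markers, so each class is called "-like"; 13 classes had at least 20 cells in every library, and 489 cells in 13 clusters stayed without a name. Fibroblast-like cells (10120) and macrophage-like cells (3213) were the largest classes, followed by 948 neutrophil-like, 864 endothelial-like and 582 monocyte-like cells. Replicate 2 stood apart in composition: fibroblast-like cells made up 71.3% of its cells, against 42.6% and 48.3% in replicates 1 and 3, and macrophage-like cells 7.75%, against 23.5% and 28.0%. Median UMIs per cell were 26132 in fibroblast-like and 5050 in neutrophil-like cells, with the lowest class median, 1527.5, in muscle fibre-like cells, so levels are given as CPM, the gene's share of all UMIs summed over the class (scaled between sums by TMM), and are compared between classes and not between genes.

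**Figure D1:**
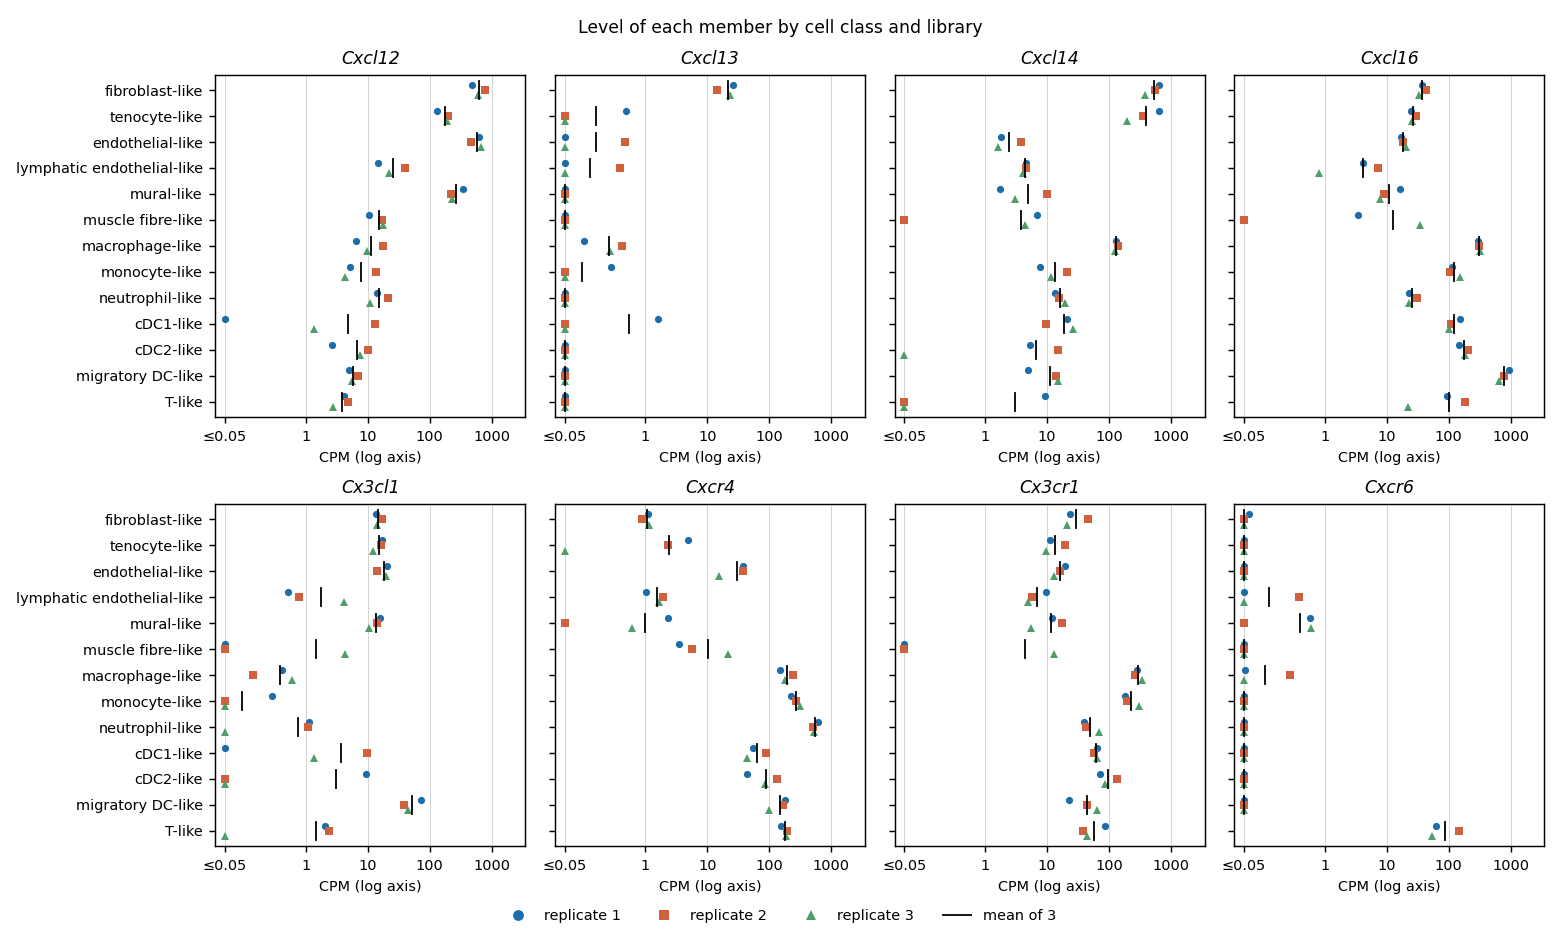
Level of each of the 8 genes in the 13 cell classes (CPM, log axis, one panel per gene); symbols are the 3 libraries and the vertical bar is their mean, with values at or below 0.05 drawn at the left edge. Among the rows at the top, Cxcl12 is highest in fibroblast-like and endothelial-like cells, Cxcl13 in fibroblast-like cells and Cxcl14 in fibroblast-like and tenocyte-like cells. Cx3cl1 is highest in migratory DC-like cells, with several stromal-like rows next. Cxcl16, Cxcr4 and Cx3cr1 are highest in leukocyte-like rows below, and Cxcr6 in T-like cells.

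The first comparison asked which side of the mixture, stromal-like or immune-like cells, holds each gene. The 4 ligand genes Cxcl12, Cxcl13, Cxcl14 and Cx3cl1, were higher in stromal-like cells, and the 3 receptor genes and the ligand Cxcl16 were lower there. Cxcl12 stood at 377, 599 and 472 CPM in stromal-like cells of replicates 1 to 3, against 5.37, 13.7 and 7.29 CPM in immune-like cells, a log2 difference of 5.87 (SE 0.165). Cxcr4 stood at 3.33, 1.84 and 1.71 CPM in stromal-like cells, against 155, 209 and 163 CPM in immune-like cells, a log2 difference of -6.30 (SE 0.270). For both genes the sides were far apart in every library. Cx3cr1, the CX3CL1 receptor, differed less (18.7, 34.8 and 16.2 CPM in stromal-like cells, against 193, 168 and 254 CPM in immune-like cells; log2 difference -3.20, SE 0.310). For Cxcl14 the difference was 2.28 (SE 0.167), with 470, 417 and 291 CPM in stromal-like cells, against 78.0, 75.6 and 84.9 CPM in immune-like cells. Cxcl16 had a log2 difference of -2.92 (SE 0.124) and Cx3cl1 one of 2.99 (SE 0.126).

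In that comparison (edgeR's quasi-likelihood test with the library as a block, Benjamini-Hochberg adjusted p under 0.05 and a log2 difference of at least 1 in size), all 8 genes passed, with adjusted p between 2.42e-07 and 8.99e-05. Of the 17523 genes tested, 49.0% passed, 29.6% higher and 19.4% lower in stromal-like cells. The median over all genes was 0.12 on the log2 scale. An alternative gave every class in a side equal weight, here and in the class tests below. It compared means of log2(CPM + 1) over the classes with at least 20 cells in every library, by limma. The added 1 shrinks differences between low levels, so these values are not on the scale of the edgeR ones. Cxcl13 (0.86) and Cxcr6 (-0.79) then kept their direction and fell short of the size limit.

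Cxcl12, the ligand of CXCR4, was highest in fibroblast-like and endothelial-like cells. It stood at 472, 776 and 593 CPM in fibroblast-like cells (mean 614 ± 153, SD, n = 3) and at 625, 462 and 676 CPM in endothelial-like cells (587 ± 112). These ranges overlapped, and which class came first was not settled: endothelial-like cells were on top in 3 of 7 alternatives, on plain CPM, without replicate 2 and without clusters of low UMIs. Mural-like cells (pericytes and smooth muscle of vessel walls) followed at 343, 224 and 226 CPM and tenocyte-like cells at 131, 201 and 191 CPM, both below those classes in every library. Lymphatic endothelial-like cells averaged 25.5 ± 12.8 CPM and every leukocyte-like class at most 15.3 CPM. Fibroblast-like cells, the largest class, held 88.1%, 96.3% and 93.2% of all Cxcl12 UMIs in replicates 1 to 3, and endothelial-like cells a mean of 5.18%. A Cxcl12 UMI was found in 81.5% ± 3.86 of fibroblast-like, 60.2% ± 3.65 of endothelial-like and 4.53% ± 1.28 of neutrophil-like cells, a class not known to make it. With each cell thinned to 2000 UMIs (shallower cells left out: 330 fibroblast-like, 227 endothelial-like and 62 neutrophil-like), the shares were 38.7% ± 4.48, 44.7% ± 6.24 and 2.17% ± 0.326. Median UMIs per cell were 26132, 8565 and 5050 in these classes, and after thinning endothelial-like cells had the higher share in replicates 1 and 3 but not in replicate 2 (38.7%, against 43.1% in fibroblast-like cells).

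Within the stromal side, no class passed the test for Cxcl12, but some alternatives did. In fibroblast-like cells it stood at 415, 674 and 527 CPM, against 343, 253 and 329 CPM in the other stromal-like cells pooled (log2 difference 0.79, SE 0.201, edgeR adjusted p = 0.0149), higher in all 3 libraries but under the size limit. Without replicate 1 the difference was 1.05 and with classes weighted equally 1.92, and both passed. In endothelial-like cells, blood and lymphatic together, the difference from other stromal-like cells was -0.37 (SE 0.229, adjusted p = 0.202), or -1.33 and past the limits with equal weights, and in mural-like cells it was -0.89 (SE 0.185, adjusted p = 0.00147). The mural-like difference passed at -1.30 without replicate 1, and turned to 0.41 where classes had equal weight. Of 7 genes of the set tested, 4 passed in fibroblast-like cells, 3 higher and 1 lower, against 28.3% of all genes tested (12.5% higher, 15.8% lower). In endothelial-like cells 4 of 7 passed, 1 higher and 3 lower, against 34.5% of all genes (14.2% higher, 20.2% lower). In mural-like cells 4 of 7 passed, all lower, against 24.0% of all genes (10.5% higher, 13.4% lower).

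Cxcl13, the follicle-organising ligand of CXCR5, was counted almost only in fibroblast-like cells. It stood at 26.2, 14.2 and 23.4 CPM there (21.3 ± 6.26) and at no more than 0.54 CPM on average in any other of the 13 classes. NK-like cells, only 47 in all, had 1 UMI. Fibroblast-like cells held 99.6% of its 4674 UMIs on average over libraries. Neutrophil-like, mural-like, T-like, cDC2-like, migratory DC-like and muscle fibre-like cells had 0 UMIs. A share of 6.4% ± 1.31 of fibroblast-like cells had a Cxcl13 UMI (2.18% ± 0.505 after thinning), while 0 of 948 neutrophil-like cells had one, which allows a share of up to 0.316%. Against other stromal-like cells, where it stood at 0.09, 0.24 and 0 CPM, Cxcl13 was higher in fibroblast-like cells at 23.0, 12.4 and 20.8 CPM (log2 difference 7.10, SE 0.345, adjusted p = 9.94e-06). Without removal of doublets the difference was 3.81 and with equal weights 4.30, both still past the limits. Endothelial-like cells had 3 UMIs, and other stromal-like cells had 84.0 times their CPM (95% counting interval 28.7 to 407). Mural-like cells had 0 UMIs, which with a limit of 3 UMIs over the group makes them at least 25.3-fold lower than other stromal-like cells.

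Cxcl14, a chemokine of resting tissue, was high in fibroblast-like and tenocyte-like cells and was also counted in macrophage-like cells. The 45 Schwann-like cells, too few for the comparisons, had 522, 923 and 250 CPM from 317 UMIs, a mean above that of any of the 13 classes. Cxcl14 levels were 641, 549 and 387 CPM in fibroblast-like cells (525 ± 129) and 652, 353 and 194 CPM in tenocyte-like cells (399 ± 233), which overlapped, replicate 3 being lowest in both. Macrophage-like cells had 128, 139 and 127 CPM (131 ± 6.73), far above cDC1-like cells at 18.9 CPM and neutrophil-like cells at 16.3 CPM. Set against the fibroblast-like level on plain CPM, macrophage-like cells had 26.5% ± 6.17 of it, while the 8 fibroblast markers had between 1.08% and 2.29% there (median 1.35%), all 8 being above 0. Their summed level was 562 to 1071 CPM in macrophage-like cells and 53149 to 59393 CPM in fibroblast-like cells. For Cxcl12, counted in the same fibroblast-like cells, the macrophage-like share of the level was 1.80%. The part of RNA from fibroblast-like cells in the macrophage-like Cxcl14 level was not tested. A Cxcl14 UMI was found in 55.6% of fibroblast-like, 37.1% ± 2.00 of macrophage-like and 4.43% of neutrophil-like cells, and after thinning in 27.7%, 14.9% ± 0.652 and 1.69%. Median UMIs per cell were 26132, 12085 and 5050, and 381 shallower macrophage-like cells were left out of the thinned share.

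Cxcl14 separated both fibroblast-like cells among stromal-like ones and macrophage-like cells among leukocytes. The log2 difference of fibroblast-like from other stromal-like cells was 2.54 (SE 0.213, adjusted p = 1.06e-04), and endothelial-like and mural-like cells were lower than other stromal-like cells (-7.22 and -6.28). Without removal of doublets these were -3.58 and -2.64, and with equal weights the fibroblast-like difference was 5.27, all still past the limits. In macrophage-like cells it stood at 106, 117 and 106 CPM, against 8.23, 11.45 and 10.7 CPM in other immune-like cells, a log2 difference of 3.46 (SE 0.115, adjusted p = 3.31e-07) with no overlap. In that comparison 5 of 7 genes of the set passed, 3 higher (Cxcl14, Cxcl16, Cx3cr1) and 2 lower (Cx3cl1, Cxcr6), against 28.9% of the 12720 genes tested (10.9% higher, 18.0% lower). In neutrophil-like cells Cxcl14 was lower than in other immune-like cells (-2.29, SE 0.210), and this turned to 0.46 where every class had equal weight.

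Cx3cl1, the membrane-bound ligand of CX3CR1, had similar levels in several stromal classes but not in all, and was highest in a class of dendritic-like cells. It stood at 20.7, 14.0 and 19.4 CPM in endothelial-like cells (18.01 ± 3.55), at 15.4 ± 2.72 in tenocyte-like, 14.9 ± 1.83 in fibroblast-like and 13.5 ± 2.78 CPM in mural-like cells, and these ranges overlapped. Lymphatic endothelial-like cells had less, at 0.51, 0.77 and 4.08 CPM. The level in migratory DC-like cells (dendritic cells with Ccr7, which carry antigen to lymph nodes) was above all of these, at 72.5, 37.9 and 44.6 CPM (51.7 ± 18.3, from 64 UMIs in 81 cells). Of these 81 cells, 59 lay in a cluster that mixed markers of migratory DC and cDC2 (scores 0.523 and 0.292). Without removal of doublets the migratory DC-like class did not reach 20 cells in every library and gave no level. A Cx3cl1 UMI was found in 41.0% ± 6.02 of migratory DC-like, 19.6% of fibroblast-like, 13.7% of endothelial-like and 0.249% of neutrophil-like cells, and after thinning in 8.12% ± 3.32, 2.09%, 4.25% and 0.121%. Median UMIs per cell were 18285, 26132, 8565 and 5050. Fibroblast-like cells held 86.0% ± 5.66 of its UMIs, endothelial-like cells 5.70% and migratory DC-like cells 1.92%.

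Among stromal classes no test passed for Cx3cl1: the log2 difference was 0.07 for fibroblast-like, -0.07 for endothelial-like and 0.13 for mural-like cells against the rest (adjusted p = 0.709, 0.793 and 0.654 from edgeR), and each changed sign when 1 library was left out. With equal weights the endothelial-like value, in which lymphatic cells counted as much as blood ones, was -1.20 and passed. The fibroblast-like value was then 0.65. Among leukocytes, dendritic-like cells of all kinds pooled had 16.6, 10.3 and 11.8 CPM, against 0.42, 0.25 and 0.44 CPM in other immune-like cells, a log2 difference of 5.08 (SE 0.386, adjusted p = 2.44e-06), which was 2.17 with equal weights and still passed. The pooled level rested mostly on 64 UMIs in migratory DC-like cells, while cDC1-like, cDC2-like and pDC-like cells had 9, 7 and 0 UMIs. Of 6 genes of the set tested in dendritic-like cells, 4 passed, Cx3cl1 higher and Cxcl14, Cxcr4 and Cx3cr1 lower, against 24.8% of all genes tested (10.8% higher, 14.0% lower). The Cxcl14 call was not kept under all alternatives, over which its log2 difference ran from -4.42 to -0.70. Macrophage-like cells, at 0.34, 0.12 and 0.51 CPM against 4.17, 3.70 and 4.48 CPM in other immune-like cells, were lower (-3.54, SE 0.374).

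Cxcl16, the membrane-bound ligand of CXCR6 and a scavenger receptor, had its sources among leukocytes. Migratory DC-like cells had 923, 769 and 649 CPM (780 ± 137), above macrophage-like cells at 295, 306 and 325 CPM (309 ± 15.4), which in turn lay above cDC2-like cells at 146, 207 and 183 CPM. Without removal of doublets the migratory DC-like class gave no level, and macrophage-like cells came first at 275 CPM. Monocyte-like and cDC1-like cells averaged 123 and 122 CPM, and T-like cells spread widely, at 92.4, 186 and 21.9 CPM. Of the 104 T-like cells, 39 lay in a cluster that mixed markers of T cells and cDC2 (scores 0.309 and 0.195). The 10 macrophage markers summed to 985 to 1411 CPM in T-like cells, a median of 13.6% of their macrophage-like level (range 9.66% to 59.0%). For Cxcl16 that share was 42.3% ± 34.5. The part of RNA from other classes in the T-like Cxcl16 level was not tested. Fibroblast-like cells had 36.9, 42.3 and 33.4 CPM and endothelial-like cells a mean of 18.5 CPM. In UMIs, however, macrophage-like cells held 55.2%, 26.3% and 60.7% and fibroblast-like cells 23.6%, 57.9% and 23.3% in replicates 1 to 3, so replicate 2, which had the most fibroblast-like cells, was the only library in which those held more. Migratory DC-like cells held 3.54%. A UMI was found in 97.6% of migratory DC-like, 75.5% of macrophage-like, 43.7% of fibroblast-like and 0.741% of muscle fibre-like cells, the last a class of 1527.5 median UMIs in which 145 of 244 cells were too shallow to thin. After thinning the shares were 67.2%, 40.3%, 5.41% and 0%.

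Macrophage-like cells had 245, 258 and 271 CPM of Cxcl16, against 113, 118 and 140 CPM in other immune-like cells, which put the difference just past the size limit (1.07, SE 0.0856, adjusted p = 1.58e-05). Dendritic-like cells together did not differ to that extent (0.14, SE 0.116, adjusted p = 0.338). That value was 1.46 with classes weighted equally and -0.52 without clusters that mixed markers of 2 classes. Among stromal-like cells Cxcl16 was higher in fibroblast-like cells (1.14, SE 0.0782) and lower in endothelial-like (-1.25) and mural-like cells (-1.45), and neutrophil-like cells were lower than other leukocytes (-3.03, SE 0.174). The mural-like difference did not pass without removal of doublets (-0.89) or with equal weights (-0.58). The endothelial-like one did not pass without removal of doublets, at a log2 difference of -1.0. On plain CPM, fibroblast-like cells had 11.9% ± 1.38 of the macrophage-like Cxcl16 level. The 10 macrophage markers had a median of 0.628% there (range 0.306% to 16.4%, the highest being Lgmn). The part of RNA from macrophage-like cells in the fibroblast-like Cxcl16 level was not tested.

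Cxcr4, the CXCL12 receptor, was highest in neutrophil-like cells among the 13 classes and was counted in each of the leukocyte classes among them. Of the smaller leukocyte classes, the 32 mast-like cells had 0 UMIs and the 25 basophil-like cells 188, 634 and 43.6 CPM from 69 UMIs. The 47 NK-like cells averaged 147 CPM and the 37 pDC-like cells 44.7 CPM. Neutrophil-like cells had 598, 502 and 517 CPM (539 ± 51.7), above monocyte-like cells at 227, 266 and 312 CPM, macrophage-like cells at 149, 241 and 181 CPM and T-like cells at 152, 193 and 184 CPM. Macrophage-like cells overlapped both monocyte-like and T-like cells, while all 3 monocyte-like values lay above the T-like ones. Migratory DC-like cells averaged 148 ± 41.5, cDC2-like cells 87.9 and cDC1-like cells 62.1 CPM. The neutrophil-like value depends on scaling, being 332 ± 19.1 on plain CPM, still the highest of the classes. Macrophage-like cells held the largest share of the UMIs (45.6%, 44.8% and 62.7%), while neutrophil-like cells held 16.6%, 11.7% and 6.79%, monocyte-like cells 11.7% on average and unnamed clusters 13.8%. A UMI was found in 61.7% ± 4.97 of neutrophil-like, 66.5% of T-like, 59.9% of macrophage-like and 2.29% of fibroblast-like cells, and after thinning in 40.9% ± 5.01, 33.8%, 25.8% and 0.160%. Median UMIs per cell were 5050, 10536, 12085 and 26132.

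Neutrophil-like cells had 495, 429 and 410 CPM of Cxcr4 in the tested sums, against 99.95, 144 and 116 CPM in other immune-like cells, a log2 difference of 1.91 (SE 0.130, adjusted p = 2.54e-13) without overlap. In that comparison 5 of 6 genes of the set passed, Cxcr4 and Cxcl12 higher and Cxcl14, Cxcl16 and Cx3cr1 lower, against 58.3% of all genes tested (23.0% higher, 35.3% lower), whose median lay at -0.45. The Cxcl12 difference rested on 50 UMIs (11.8, 17.97 and 8.51 CPM in neutrophil-like cells, against 3.75, 10.0 and 5.45 CPM in other immune-like cells; 1.13, SE 0.342, adjusted p = 0.00473), and the ranges overlapped. The 8 fibroblast markers were all above 0 in neutrophil-like cells, at 581 to 1100 CPM summed, and had a median of 1.33% of their fibroblast-like level, against 1.89% for Cxcl12; their part in the result was not tested. The Cxcl12 call was lost without replicate 1 (0.76, adjusted p = 0.146), without the library block (1.06, adjusted p = 0.0549), with no filter on low counts (0.82) and without removal of doublets (0.88).

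Outside the leukocytes, endothelial-like cells had the highest Cxcr4 level of the 13 classes: blood vessel endothelial-like cells had 38.0, 37.9 and 15.7 CPM, against 1.10, 0.90 and 1.16 CPM in fibroblast-like cells. The 53 satellite-like cells, too few for the comparisons, had more (69.1, 46.5 and 42.0 CPM from 41 UMIs), and the 45 Schwann-like cells averaged 32.6 CPM. The tested sums, lymphatic endothelial-like cells included, were 27.3, 24.3 and 11.1 CPM, against 1.498, 0.86 and 1.32 CPM in other stromal-like cells (log2 difference 4.12, SE 0.318, adjusted p = 3.00e-05), with no overlap. Of leukocyte markers in blood endothelial-like cells, the 10 macrophage markers summed to 537 to 683 CPM, against 7383 to 9111 CPM in macrophage-like cells, the 8 neutrophil markers to 14.3 to 73.4 CPM, and the 7 T markers to 0.49 to 1.73 CPM with Cd3e, Cd3d, Cd3g and Trbc2 at 0. Their part in the Cxcr4 level was not tested. A Cxcr4 UMI was found in 11.1% of endothelial-like cells (4.14% after thinning). Fibroblast-like cells were lower than other stromal-like cells (-3.98, SE 0.258). With equal weights this difference was -1.07 and the endothelial-like one 2.01, both still past the limits. Macrophage-like and T- and NK-like cells did not differ from other immune-like cells by enough to pass (-0.41 and -0.14; adjusted p = 0.0312 and 0.497), and both values changed sign with equal weights (0.21 and 0.11). Dendritic-like cells were lower (-1.31, SE 0.112).

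Cx3cr1, the receptor of CX3CL1, was a gene of macrophage-like and monocyte-like cells. Levels were 278, 259 and 344 CPM in macrophage-like cells (294 ± 44.5) and 183, 196 and 307 CPM in monocyte-like cells (229 ± 68.4), overlapping. Next came cDC2-like cells at 71.8, 135 and 87.7 CPM, then cDC1-like (61.3), T-like (56.3), neutrophil-like (50.1) and migratory DC-like cells (44.1 CPM). On plain CPM, T-like cells had 25.3% ± 12.1 of the macrophage-like Cx3cr1 level and neutrophil-like cells 12.4% ± 2.40. The 10 macrophage markers had medians of 13.6% (range 9.66% to 59.0%) and 4.87% (range 2.38% to 56.3%) there. The part of RNA from macrophage-like cells in these 2 levels was not tested. Against other immune-like cells at 94.7, 87.7 and 127 CPM, macrophage-like cells stood at 231.5, 218 and 287 CPM (log2 difference 1.26, SE 0.0850, adjusted p = 6.33e-06), clear of each other in all 3 libraries. Dendritic-like (-1.78), neutrophil-like (-2.02) and T- and NK-like cells (-2.03) were lower than other immune-like cells; with equal weights these came to -0.87, -0.97 and -0.84 and no longer passed.

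Fibroblast-like cells had a measurable Cx3cr1 level of 23.6, 45.1 and 20.7 CPM from 7875 UMIs, highest in replicate 2. They held 17.7%, 64.1% and 15.3% of the gene's UMIs and macrophage-like cells 61.0%, 23.1% and 68.1%, so the larger holder changed in replicate 2. On plain CPM the fibroblast-like level was 8.39%, 16.4% and 6.08% of the macrophage-like level. The 10 macrophage markers, all above 0 in fibroblast-like cells, had a median of 0.628% there (range 0.306% to 16.4%, the highest being Lgmn, a lysosomal protease, and the next Apoe at 2.69%), and summed to 202 to 262 CPM in fibroblast-like cells, against 7383 to 9111 CPM in macrophage-like cells. Cxcr4, counted in the same macrophage-like cells, had 0.578% of its macrophage-like level in fibroblast-like cells. The part of RNA from macrophage-like cells in the fibroblast-like Cx3cr1 level was not tested. A Cx3cr1 UMI was found in 66.1% of macrophage-like, 67.6% of monocyte-like and 23.9% ± 4.81 of fibroblast-like cells, and after thinning in 34.5%, 29.4% and 4.01% ± 1.36, with 26132 median UMIs in fibroblast-like cells, against 12085 in macrophage-like cells. The fibroblast-like difference from other stromal-like cells was 0.94 (SE 0.191, adjusted p = 0.00569), under the size limit, and it passed at 1.26 without replicate 1. Mural-like cells were lower than other stromal-like cells by -1.01, a call lost without replicate 3, without the library block, without removal of doublets and with equal weights (-0.88, -0.96, -0.37 and -0.37).

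Cxcr6, the CXCL16 receptor, was counted in few cells: of its 379 UMIs 146 were in T- and NK-like cells and 218 in unnamed clusters. T-like cells had 61.6, 147 and 54.8 CPM (88.0 ± 51.6, from 141 UMIs), while each of the other 12 classes with enough cells had at most 0.40 CPM on average. NK-like cells, only 47 in all, had 0, 8.22 and 12.8 CPM from 5 UMIs. In T- and NK-like cells together 146 UMIs gave 50.1, 96.7 and 39.0 CPM, against 3 UMIs in other immune-like cells, a ratio of 1474 (95% counting interval 494 to 7228; edgeR adjusted p = 1.80e-06). In that comparison 4 of 7 genes of the set passed, Cxcr6 higher and Cxcl14, Cxcl16 and Cx3cr1 lower, against 22.4% of all genes tested (11.1% higher, 11.3% lower). The Cxcl16 call was not kept under all alternatives, over which its log2 difference ran from -6.00 to -1.12. A Cxcr6 UMI was found in 36.4% ± 7.73 of T-like and 0.086% of fibroblast-like cells (14.7% ± 9.45 and 0.006% after thinning; median UMIs 10536 and 26132). Macrophage-like cells had 3 UMIs, and other immune-like cells had 112 times their CPM (95% counting interval 37.6 to 550). With 0 UMIs against 149, dendritic-like cells were at least 4.59-fold and neutrophil-like cells at least 4.0-fold lower than other immune-like cells. The named T-like class held only 35.3% ± 9.19 of the gene's UMIs and unnamed clusters 59.5% ± 9.49. Most of the UMIs without a class lay in 1 unnamed cluster of 39 cells with Gata3, Ikzf3, Areg and Il2ra, genes of T cells and innate lymphocytes, among its leading genes, with 158 UMIs, 213.5 CPM (95% counting interval 181.5 to 249.5) and 84.6% of its cells carrying a UMI. Macrophage markers scored highest in that cluster, with all 10 detected (score 0.471, against 0.256 for the next list, ILC2), and it stayed unnamed because its leading genes belong to another class.

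**Figure D2:**
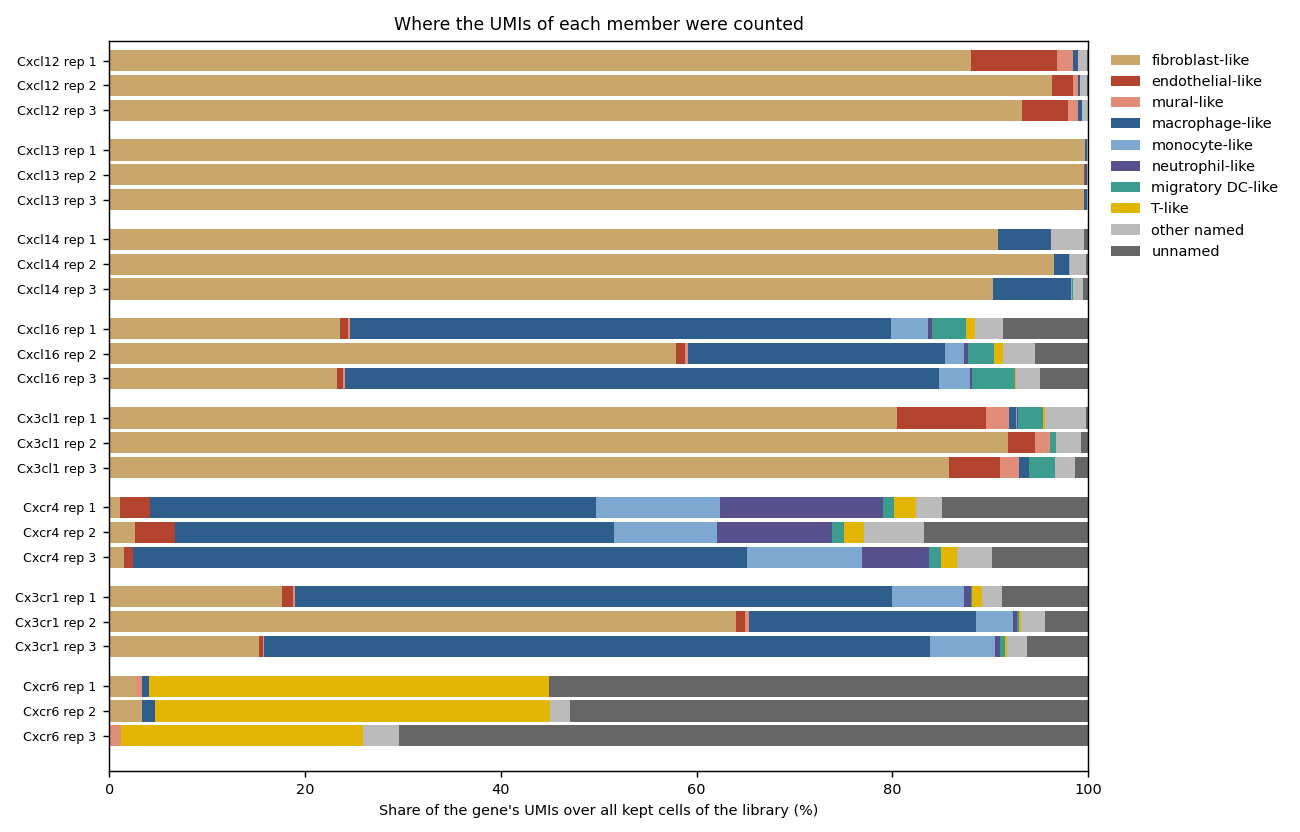
Share of each gene's UMIs held by each class in each library (percent of all kept cells, 1 bar per library, bars run to 100%). Fibroblast-like cells fill most of the bars of Cxcl12, Cxcl13, Cxcl14 and Cx3cl1, macrophage-like and fibroblast-like cells trade places in replicate 2 for Cxcl16 and Cx3cr1, and unnamed clusters fill more than 50% of the Cxcr6 bars.

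**Figure D3:**
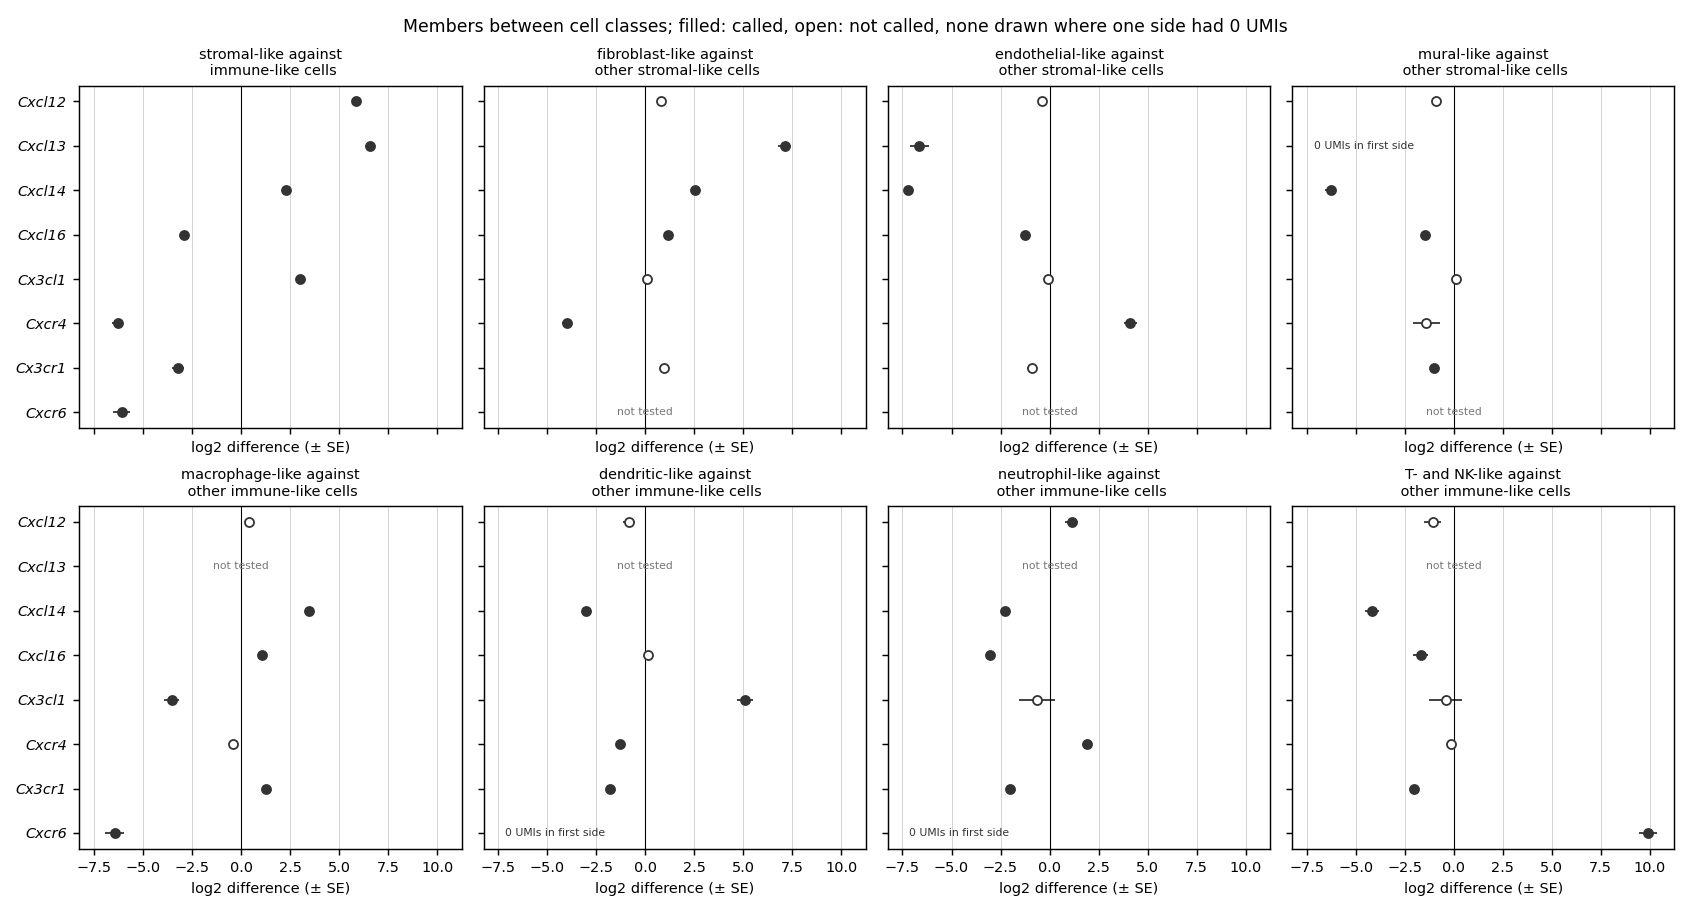
Log2 difference between classes (points, with SE as bars) for each gene in the 8 class comparisons, positive where the first-named class is higher; filled points passed the adjusted p and size limits, open points did not. In the first panel 4 genes lie right of 0 and 4 left; Cx3cl1 sits near 0 in all 3 stromal panels and at 5.08 in dendritic-like cells.

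Taking shares per UMI, the class that held most of each gene depends on class size as well as level. Stromal-like to immune-like cells numbered 3074 to 2268, 6218 to 1242 and 2670 to 1750 in replicates 1 to 3. When every class counted equally, 5 of 8 genes kept the same leading class among the named ones, and fibroblast-like cells held 35.1% of Cxcl12, 46.7% of Cxcl14 and 12.2% of Cx3cl1. For Cxcl16 equal counting put migratory DC-like cells first (44.4%), for Cx3cl1 again migratory DC-like cells (40.2%), and for Cxcr4 neutrophil-like cells (35.7%).

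Within fibroblast-like cells the ligand genes were unevenly spread. The 15 subclusters with at least 20 cells in every library were built without the 8 genes and the partner genes described below, and are called by number with their leading genes. All 6 genes of the set tested across them passed (edgeR F-test over all subclusters, adjusted p under 0.05 and at least 1 log2 from lowest to highest), against 72.9% of all genes tested. The fitted distances were 4.12 for Cxcl12, 9.96 for Cxcl13, 8.31 for Cxcl14, 5.88 for Cx3cl1, 2.22 for Cx3cr1 and 2.16 for Cxcl16, and the median over all genes was 1.77.

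Cxcl12 was highest in subcluster 3, led by Kirrel3, Saa3 and Mmp3, at 1539, 2205 and 1856 CPM (1867 ± 333), and in subcluster 10, led by Saa3, Mmp3 and Ccl19, at 1268 ± 277. Saa3 encodes an acute-phase protein and Mmp3 a matrix protease; Cxcl12 itself was among the 10 leading genes of both. It was lowest in subcluster 1, led by Car8, Dpp4 and Pi16, at 108 ± 19.2 CPM. Pi16 and Dpp4 are known markers of a fibroblast type found in the adventitia and fascia of many mouse tissues. Dpp4, which encodes a protease that cuts and inactivates CXCL12, had 637, 457 and 563 CPM in subcluster 1 and 381 ± 37.7 CPM in subcluster 15, also led by Pi16, against 27.1 ± 9.27 CPM in subcluster 3. Ackr3, whose protein removes CXCL12 from the tissue, had 906 ± 41.6 CPM in subcluster 1, against 234 ± 74.9 CPM in subcluster 3. The subcluster with the least ligand transcript had the most Dpp4 and Ackr3 transcript of the 15, while the subclusters lowest in Dpp4 (2 and 7, at 5.0 and 13.4 CPM) were not those highest in Cxcl12.

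Cxcl13 was highest in subcluster 8, led by the interferon-response genes Cxcl10, Ifit1, Ifit3 and Isg15, at 179, 123 and 73.9 CPM (125 ± 52.4). Subcluster 1 had 47.9, 31.8 and 36.6 CPM and subcluster 15 a mean of 33.8 CPM. Subcluster 3 had 25.7 and 12.6 CPM in replicates 1 and 2 but 126 CPM in replicate 3, which stood apart. Subclusters 2, 4, 7 and 14 had at most 0.3 CPM each. For Cxcl14, subcluster 1 had 3.2, 6.0 and 1.3 CPM and subcluster 15 13.5 CPM, against 1388, 1325 and 935 CPM in subcluster 9 (led by Abca8a and Smoc2) and 1271, 1067 and 1185 CPM in subcluster 11 (led by Comp and Angptl1). Cx3cl1 was likewise lowest in subclusters 1 and 15 (0.3 and 0.8 CPM) and stood at 20.6 CPM in subcluster 7, led by Mmp13 and Cxcl5, and 20.2 CPM in the cycling subcluster 14, led by Top2a. Subclusters 1 and 15 had Cxcl13 and, of the 15, the least Cxcl14 and Cx3cl1. Cx3cr1 was highest in replicate 2 in subclusters 1, 6 and 8 (61.0, 50.9 and 65.1 CPM, against 24.2, 35.2 and 31.3 CPM in replicate 1).

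**Figure D4:**
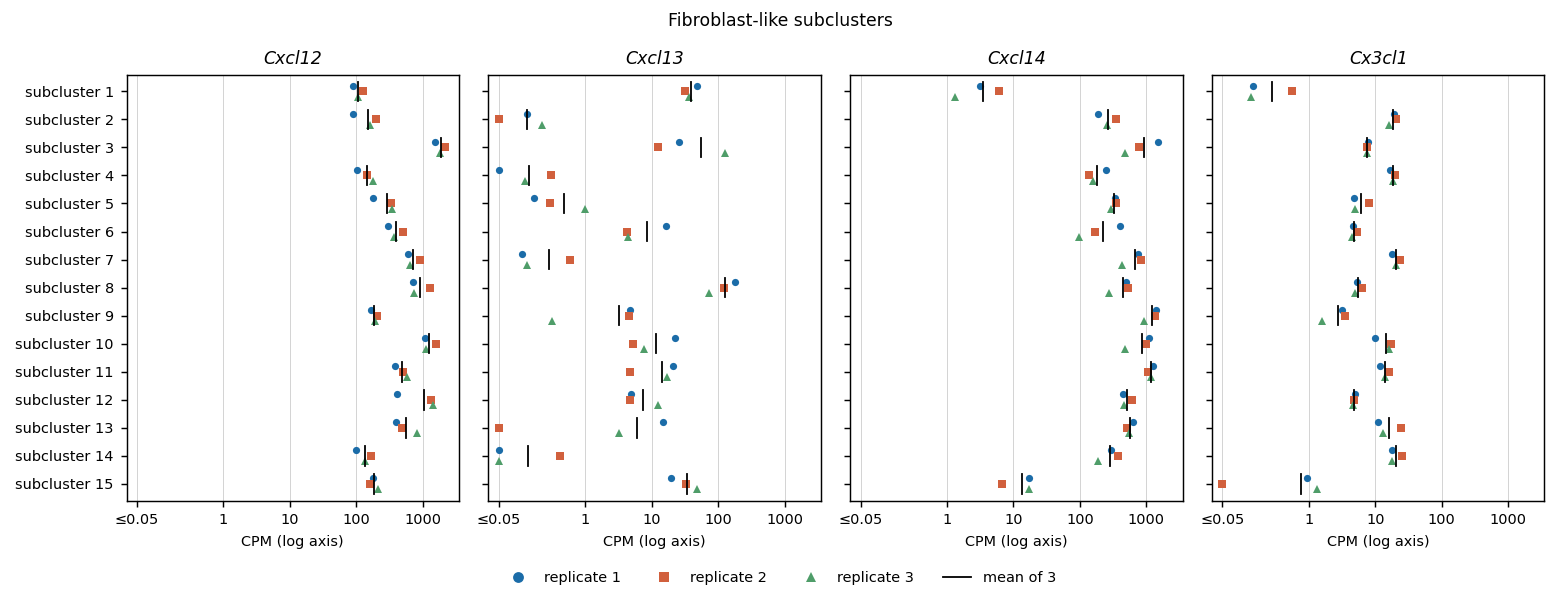
Level of 4 ligand genes in the 15 fibroblast-like subclusters (CPM, log axis; symbols are libraries, bars their mean). Subclusters 3 and 10 lead for Cxcl12, subcluster 8 for Cxcl13, subclusters 9 and 11 for Cxcl14, and subclusters 1 and 15 sit at the left for Cxcl14 and Cx3cl1.

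Macrophage-like cells also varied, by less. In 10 subclusters with enough cells, the 5 genes of the set tested all passed the same F-test, against 46.3% of all genes tested. Fitted distances were 1.52 for Cx3cr1, 1.78 for Cxcr4, 1.56 for Cxcl16, 3.19 for Cxcl14 and 3.65 for Cxcl12, and the median over all genes was 1.12. Subcluster 8, led by Ccr2 and the class II antigen-presentation genes Ciita and H2-Eb1, had 365, 461 and 424 CPM of Cx3cr1 (417 ± 48.4), against 146, 146 and 187 CPM (160 ± 23.4) in subcluster 2, led by Gpnmb and Mmp12, genes of lipid-laden and matrix-degrading macrophages. These ranges did not overlap. Cxcr4 was highest in subcluster 4, led by Selenop, Apoe and Ms4a7, at 235, 360 and 255 CPM and lowest in subcluster 3, led by Cxcl3 and Dcstamp, at 67.0, 107 and 73.7 CPM. Dcstamp is needed for fusion of macrophages into giant cells. Cxcl16 was highest in subcluster 5, led by Hebp1 and C1qa, at 431, 493 and 474 CPM and lowest in subcluster 3 at 161, 134 and 174 CPM.

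For Cxcl14 the order of subclusters 3 and 4 was the other way round: subcluster 3 had 193, 212 and 203 CPM and subcluster 4 only 23.8, 31.2 and 19.5 CPM. Fibroblast markers summed to 368 to 507 CPM in subcluster 3 and 444 to 861 CPM in subcluster 4, and their part in this order was not tested. The highest Cxcl14 mean, 227 ± 70.4 CPM, and the highest Cxcl12, 20.4, 109 and 69.8 CPM, were in subcluster 6, a shallow subcluster (2662 median UMIs) led by collagen genes, in which the fibroblast markers summed to 4312 to 10618 CPM. Their part in those levels was not tested. The highest Cx3cr1 mean was also there (485 ± 343 CPM) but rested on replicate 3, at 877 CPM, against 338 and 240 CPM in the others.

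**Figure D5:**
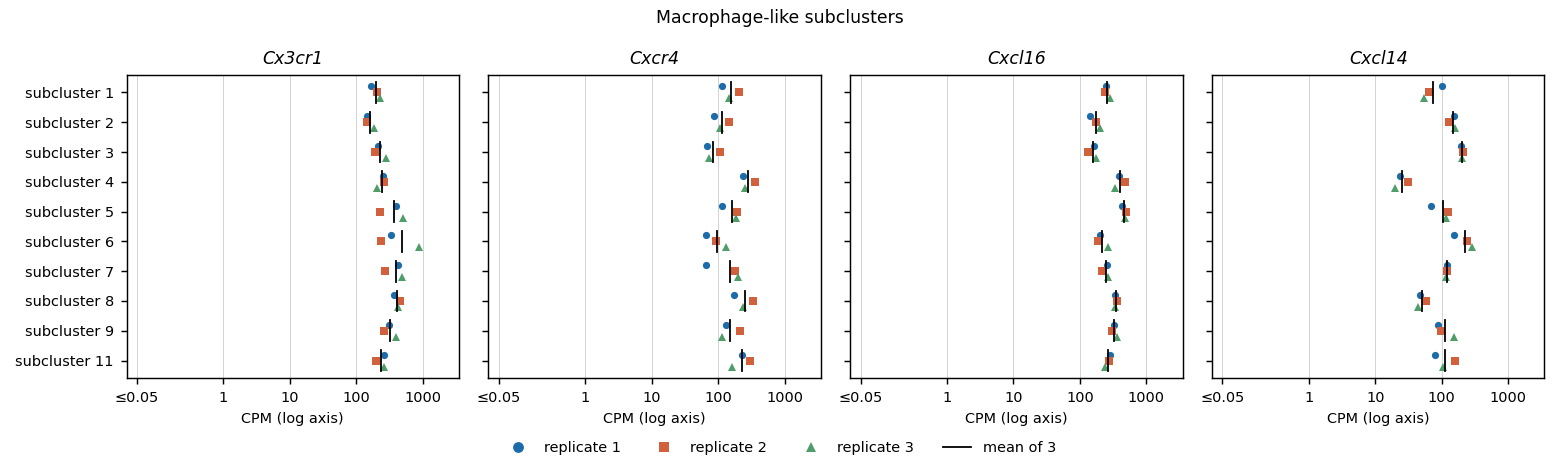
Level of Cx3cr1, Cxcr4, Cxcl16 and Cxcl14 in 10 macrophage-like subclusters (CPM, log axis; symbols are libraries, bars their mean). Subcluster 4 leads for Cxcr4 and is lowest for Cxcl14, subclusters 2 and 3 are lowest for Cxcl16, and subcluster 6 has 1 library far to the right for Cx3cr1.

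The genes that act with these chemokines were given as 23 partners in 4 roles. In stromal-like against immune-like cells 18 of 23 passed, 3 higher and 15 lower, beside the 49.0% of all genes. The 2 other receptors split: Ackr3, the CXCL12 scavenger, was higher at 334, 338 and 279 CPM, against 7.08, 12.3 and 5.79 CPM in immune-like cells (log2 difference 5.31), and Cxcr5, the CXCL13 receptor, was lower (-4.96). Fibroblast-like cells had the most Ackr3 (416 ± 46.3 CPM), overlapping lymphatic endothelial-like cells (331 ± 104). Of 6 enzymes that cut or shed the ligands, 2 rose in stromal-like cells and 3 fell, with Ctss (-8.06), a lysosomal protease of macrophages, and the matrix protease Mmp2 (5.41) the farthest apart. Of 10 G proteins and receptor regulators 6 fell and none rose, led by Rgs1 (-7.57), Grk3 (-6.77) and Arrb2 (-4.13), which damp or end receptor signals. All 5 genes of leukocyte motility fell, led by Dock2 (-9.05), Rac2 (-7.91) and Pik3cg (-6.73).

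Among leukocytes, neutrophil-like cells had the highest level of Cxcr5 at 116, 98.4 and 93.1 CPM (103 ± 12.2), against 11.5 ± 4.73 in migratory DC-like and 5.04 ± 2.26 CPM in T-like cells. Its log2 difference in neutrophil-like against other immune-like cells was 6.15, and 14 of 22 partners tested passed there, 9 higher and 5 lower, beside 58.3% of all genes. Dendritic-like cells were higher in Dpp4 at 128, 105 and 148 CPM, against 7.19, 7.39 and 5.75 CPM in other immune-like cells (4.24), with 6 of 22 partners passing, 3 each way, beside 24.8% of all genes. Macrophage-like cells had 2 of 22 higher, Ctss (1.99) and Rgs1 (1.53), and 4 lower, beside 28.9% of all genes. T- and NK-like cells had 2 higher, Dpp4 (1.67) and Grk6 (1.39), and 2 lower, beside 22.4% of all genes. Among stromal-like cells, fibroblast-like cells were higher in Dpp4 (3.37), Mmp2 (1.84) and Ackr3 (1.59) and lower in 7 of 22 partners, beside 28.3% of all genes called. Endothelial-like cells had 7 higher and 4 lower, among them Pik3cg (4.30), Arrb1 (3.08) and Elmo1 (2.45) higher and Dpp4 (-5.85) lower, beside 34.5% of all genes. Mural-like cells had 2 higher and 6 lower of 21, beside 24.0%.

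Across the 13 classes, the genes whose pattern of level was most like each chemokine gene were found by Pearson's r on log2(CPM + 1), as a description over classes that share 3 libraries and differ in depth. For Cxcl12 these were Tmem47 (r = 0.967), Enpp2 (0.965) and Col15a1 (0.961), and for Cxcl14 they were Clmp (0.973), Bdh2 (0.970) and Igf1 (0.942). For Cxcl13, near 0 outside fibroblast-like cells, they were Olfr810 (0.985), Gjb5 (0.964) and Lvrn (0.926). Cx3cl1, with its mixed stromal and migratory DC-like pattern, had lower values, led by Kazn (0.937). Cxcl16 was most like Ass1 (0.9504) and Ifi30 (0.944), Cx3cr1 most like Ctsa (0.946) and Kcnn4 (0.941), and Cxcr4 most like the pan-leukocyte genes Lcp1 (0.985) and Hcls1 (0.981). For Cxcr6 the lymphocyte genes Foxp3 (0.998), Gimap3 (0.998) and Il17a (0.997) came first, a pattern set by 1 class being far above the others.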

How the data were processed

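Single cells from 3 libraries were counted with the 10x Genomics 3′ v3.1 chemistry. The deposited files hold UMI counts per gene and cell barcode, made by the authors with Cell Ranger (7.0.0 per the file headers, 6.1.2 per the submitters' processing notes); neither the genome build nor the intron setting is given in the sources used here. From these, barcodes with at least 500 UMIs, 200 genes and at most 20% mitochondrial UMIs were kept, and the barcodes with the highest Scrublet doublet scores (0.8% per 1000 barcodes) were removed (295, 598 and 200). Libraries shared 13, 13 and 10 barcodes in pairs, which were kept. Cells were clustered with scanpy 1.11.5 (2000 variable genes without the 8 genes and their partners, 30 components, 15 neighbours, Leiden resolution 1.0). Clusters were named from fixed marker lists; the score limits (0.15, ratio 1.5) and the rule that 3 leading lymphocyte genes bar a macrophage name were set after the marker and cluster tables had been seen. UMIs were summed per library and class side and tested with edgeR 4.0.16 (quasi-likelihood, filterByExpr, TMM, library as a block, since both sides of a comparison come from the same suspension), with p-values adjusted over all genes tested and a call at adjusted p under 0.05 and a log2 difference of at least 1. The fits were tested on simulated data. limma 3.58.1 (on means of log2(CPM + 1), with every class weighted equally) and DESeq2 1.42.0 served alternatives. All 8 genes are named, with at most 3 partners per role (largest log2 difference) and the 3 genes most alike each. Members and lists were chosen with earlier results of these data known. Intervals and zero limits (3 UMIs) cover counting error only.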

Additional observations from a re-analysis of the deposited data

Results flagged for a closer look

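Clusters without a name, which enter none of the class comparisons, also held UMIs of these genes, above the limit that a count of 0 allows. They held 2015 UMIs of Cxcr4, 1746 of Cxcl16, 1599 of Cx3cr1 and 434 of Cxcl14. Of Cxcr6 they held 218 UMIs, more than the T-like class, of Cxcl12 112 and of Cx3cl1 31. Their 489 cells were not tested as a class.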

How the results depend on the processing

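Of 66 tests of these genes between classes and across subclusters, 39 had the same call and sign under all alternatives run. Neither DESeq2 nor the added alternative without clusters of low UMIs, chosen after seeing the data, changed a call or sign. Of 790 alternative values, 747 kept sign and call, 19 lost a call, 13 gained one and 11 changed sign. Some of those that kept both could not move, because the alternative took out none of the cells compared. Leaving out clusters that mix markers changed no cells in the fibroblast-like, endothelial-like and mural-like comparisons or in the subcluster tests. Leaving out clusters of low UMIs changed none in the fibroblast-like subclusters. With every class weighted equally, 3760 genes passed in endothelial-like cells (5687 otherwise) and 1462 in T- and NK-like cells (2787), and 5 of 8 genes kept the named class with the largest share of their UMIs. The higher share of calls then moved to 73.8% from 44.2% in fibroblast-like, to 73.0% from 37.8% in macrophage-like and to 60.5% from 49.6% in T- and NK-like comparisons. In the tests, equal weights also meant another measure, means of log2(CPM + 1) over classes, whose part in the changes was not tested. Signs changed with equal weights for Cxcl12 in mural-like (0.41), Cxcr4 in macrophage-like (0.21) and in T- and NK-like (0.11) and Cxcl14 in neutrophil-like cells (0.46). Without removal of doublets they changed for Cxcr4 in mural-like (1.45) and in T- and NK-like cells (0.089), and without clusters mixing markers for Cxcl16 in dendritic-like cells (-0.52). With 1 library left out, Cx3cl1 ran from -0.070 to 0.25 in fibroblast-like, -0.31 to 0.21 in endothelial-like, -0.052 to 0.22 in mural-like and -1.05 to 0.024 in T- and NK-like cells. The causes were not tested. Without the library block, which pairs both sides of a comparison, 8608 genes passed in stromal-like against immune-like cells (8595 with it); apart from Cxcl12 in neutrophil-like and Cx3cr1 in mural-like cells the pairing decided no call of these genes. Depth limits Cxcr6 most, at 379 UMIs in all.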

Other observations

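In the unnamed cluster of 39 cells with Gata3 and Areg among its leading genes, 82.1% of cells carried a Cxcr4 UMI and 84.6% a Cxcr6 UMI. It held 251 UMIs of Cxcr4 and 163 of Cxcl16.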
